A study of Mus musculus with 8 samples.

Results

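The genes of the epidermal differentiation complex were followed in peaks of open chromatin from squamous cell carcinoma (SCC) cells. The members were all protein-coding genes between 90.4 and 93.7 Mb on chromosome 3 (mm10) whose symbols start with S100a, Sprr or Lce, or that are *Flg*, *Flg2*, *Hrnr*, *Rptn*, *Tchh*, *Tchhl1*, *Crnn*, *Ivl* or *Lor*. There were 59 of them among 21938 protein-coding genes, namely 14 *S100a* genes, 15 *Sprr* genes, 21 *Lce* genes, 7 genes of the fused S100 type (*Flg*, *Flg2*, *Hrnr*, *Rptn*, *Tchh*, *Tchhl1* and *Crnn*), *Ivl* and *Lor*. The rule used position and name only and no measured value. Another 24 protein-coding genes lie in the same interval.

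The complex holds most of the genes that build the outermost, dead layer of the skin. When a keratinocyte leaves the basal layer and differentiates, involucrin, loricrin, the small proline-rich proteins and the late cornified envelope proteins are cross-linked by transglutaminases into an envelope beneath the cell membrane, and filaggrin and its relatives bind and bundle keratin filaments. The S100 proteins are small calcium-binding proteins with signalling, membrane and inflammatory roles, and many are made well outside the differentiated layers.

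ATAC-seq, in which Tn5 transposase cuts accessible DNA and tags it for sequencing, was performed on 4 lines of mouse cutaneous SCC cells with Ha-Ras as the driver gene. The tumours were raised by DMBA/TPA two-stage carcinogenesis in FVB mice of genotype K14CreER FAKflox/flox, in which the keratin 14 promoter, active in basal keratinocytes, drives a tamoxifen-inducible Cre. Deletion of the floxed gene for focal adhesion kinase (FAK) was induced in the cultured cells by 4-hydroxytamoxifen, giving the FAK-/- line. The FAK-WT, FAK-nls and FAK-kd lines were made by retroviral re-expression in a FAK-/- clone, followed by hygromycin selection, of wild-type FAK, of FAK impaired in nuclear localization (R177A, R178A, R190A, R191A, R216A, R218A) or of kinase-dead FAK (K454R). All lines therefore carry the deletion, FAK-/- cells are the control without a construct, and each construct is represented by cells from a single clone. The ages of the mice are not given in the sources used here. Each line had 2 libraries, which the study calls biological replicates. The deposited data were the peaks called in each library with MACS2, so a window was either called or not called, and one with no call may hold accessibility too weak to be called. With n = 2 per line, p-values measure only the spread between these libraries.

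The libraries held between 24402 and 53728 peaks, and both FAK-nls libraries had fewer (24402 and 24974) than any other library. The study tabulates read numbers, which were not used here, and the length of a peak list is no measure of depth. Promoters that define keratinocytes were mostly not called: within 500 bp of a transcript start, the integrin gene *Itga6* was called in all 8 libraries and *Krt14* in 1, but *Krt5*, *Trp63* and *Cdh1* in none. In the same windows, the leukocyte genes *Ptprc*, *Cd3e*, *Cd79a* and *Csf1r* and the melanocyte genes *Mlana* and *Dct* were not called. Of the fibroblast genes, *Pdgfra* was called in 8 libraries, *Col1a1* in 6 (not in FAK-/-) and *Dcn* in 0, and of the endothelial genes *Cdh5* was called in 2 (both FAK-WT) and *Pecam1* in 0. With the gene body and 5 kb upstream, calls were wider. Of the keratinocyte genes, *Itga6* was then called in 8 libraries, *Trp63* in 7, *Cdh1* in 3 (both FAK-WT and FAK-kd 2), *Krt5* in 2 (both FAK-WT) and *Krt14* in 1. Of the leukocyte genes, *Ptprc* was called in 7, *Csf1r* in 4 and *Cd3e* and *Cd79a* in 0. *Pdgfra*, *Col1a1* and *Dcn* were called in 8, *Pecam1* in 6, *Cdh5* in 4, *Dct* in 2 (both FAK-WT) and *Mlana* in 0. Their part in the results was not tested.

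The sequences that carry the results come from 6 peak regions in member windows and from 2 marker promoters. The RefSeq promoters of *Ivl* and *Flg* (GRCm38, 250 bases before to 50 after the start, on the strand of the gene) are shown because *Ivl* and *Flg* define the differentiated keratinocyte. *S100a10* is the third marker. The chosen peaks are shown by the central 300 bases (GRCm38, plus strand) of the 5 strongest regions that overlapped a member window, did not touch an untranslated exon in those bases, and were called in all 8 libraries or separated 2 lines (all 5 were called in all 8). The coding-exon region of *Lor* is added because its calls separated the FAK-WT libraries from all others, and it was chosen after its values were seen. Capitals mark exact matches, on either strand, to TGACTCA (AP-1), AGGAAGT or CGGAAGT (ETS), AACCGGTT (Grainyhead), TTGCGCAA (C/EBP), CCACACCC (KLF) and the consensus of the p53 family or CTCF.
Ivl promoter, chr3:92573686-92573985, minus strand: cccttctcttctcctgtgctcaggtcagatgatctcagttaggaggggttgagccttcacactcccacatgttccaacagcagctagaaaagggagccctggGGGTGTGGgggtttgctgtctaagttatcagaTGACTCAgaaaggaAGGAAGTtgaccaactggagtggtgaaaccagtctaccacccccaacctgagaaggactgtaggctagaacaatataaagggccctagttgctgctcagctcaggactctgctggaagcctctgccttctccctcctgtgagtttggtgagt
Flg promoter, chr3:93273296-93273595, plus strand: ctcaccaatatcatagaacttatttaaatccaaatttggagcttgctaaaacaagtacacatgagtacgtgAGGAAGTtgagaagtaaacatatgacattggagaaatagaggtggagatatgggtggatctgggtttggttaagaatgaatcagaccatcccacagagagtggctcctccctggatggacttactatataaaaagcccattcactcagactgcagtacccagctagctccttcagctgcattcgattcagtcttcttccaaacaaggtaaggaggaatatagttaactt
Lce3a and Lce3b upstream region, chr3:92929231-92929530: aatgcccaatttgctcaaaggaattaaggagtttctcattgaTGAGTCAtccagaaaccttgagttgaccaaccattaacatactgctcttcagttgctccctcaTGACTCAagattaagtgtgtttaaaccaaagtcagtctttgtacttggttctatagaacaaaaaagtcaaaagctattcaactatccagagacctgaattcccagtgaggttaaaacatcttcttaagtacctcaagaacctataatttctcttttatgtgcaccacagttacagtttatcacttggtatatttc
Lce1d distal upstream region, chr3:92691773-92692072: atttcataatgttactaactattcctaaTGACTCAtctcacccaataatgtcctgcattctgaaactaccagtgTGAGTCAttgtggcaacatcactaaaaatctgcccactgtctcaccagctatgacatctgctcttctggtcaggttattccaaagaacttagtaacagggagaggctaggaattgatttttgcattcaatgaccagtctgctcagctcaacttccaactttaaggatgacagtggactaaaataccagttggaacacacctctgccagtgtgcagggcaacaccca
S100a3 and S100a2 region, chr3:90587300-90587599: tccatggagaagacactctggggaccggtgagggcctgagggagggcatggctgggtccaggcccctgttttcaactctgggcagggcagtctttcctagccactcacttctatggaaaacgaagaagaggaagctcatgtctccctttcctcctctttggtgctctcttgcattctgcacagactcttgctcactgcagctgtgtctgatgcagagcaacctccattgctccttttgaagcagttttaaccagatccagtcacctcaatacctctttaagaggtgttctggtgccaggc
Lce1d proximal upstream region, over the Gm4202 start, chr3:92689082-92689381: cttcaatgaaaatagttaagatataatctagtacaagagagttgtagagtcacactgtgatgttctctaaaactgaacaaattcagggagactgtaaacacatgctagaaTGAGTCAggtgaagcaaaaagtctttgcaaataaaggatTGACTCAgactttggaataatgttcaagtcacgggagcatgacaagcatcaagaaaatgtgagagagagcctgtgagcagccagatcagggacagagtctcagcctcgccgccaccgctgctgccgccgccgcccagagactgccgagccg
S100a4 and S100a5 region, chr3:90604004-90604303: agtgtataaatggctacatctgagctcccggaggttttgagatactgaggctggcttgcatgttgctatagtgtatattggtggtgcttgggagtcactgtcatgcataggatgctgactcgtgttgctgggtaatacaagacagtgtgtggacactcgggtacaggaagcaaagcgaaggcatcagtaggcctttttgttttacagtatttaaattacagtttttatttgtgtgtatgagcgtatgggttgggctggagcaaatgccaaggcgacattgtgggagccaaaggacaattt
Lor coding exon region, chr3:92081165-92081464: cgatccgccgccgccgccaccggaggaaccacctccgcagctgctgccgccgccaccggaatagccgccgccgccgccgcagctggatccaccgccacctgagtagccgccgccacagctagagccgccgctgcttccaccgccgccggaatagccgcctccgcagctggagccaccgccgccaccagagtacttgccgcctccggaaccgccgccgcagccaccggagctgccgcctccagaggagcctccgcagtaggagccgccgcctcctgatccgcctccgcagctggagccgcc
The *Ivl* promoter held 1 match each to the AP-1, ETS and KLF letters, and the *Flg* promoter held 1 ETS match. The 3 *Lce* regions each held 2 AP-1 matches, whereas the *S100a* and *Lor* regions held no match in these 300 bases. A match describes letters only and does not show that a factor was bound.

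The members were called less often than protein-coding genes as a whole. A gene counted as called when a peak overlapped its body or the 5 kb upstream of its start by at least 1 bp. Of the 59 members, 13 (22.0%) were called in all 8 libraries, against 49.0% of all protein-coding genes, 16 were called in 1 to 7 libraries, and 30 (50.8%) were called in none, against 28.4% of all protein-coding genes. Thus 29 members (49.2%) had a call in at least 1 library, against 71.6%. With 10 kb upstream, 23 members were called in none and 16 in all 8 libraries, so these counts depend on the window. The median member was 1773 bp long, and the shares were not matched for gene length. The *S100a* genes made up 9 of the 13 members called throughout, beside *Sprr1a*, *Lce1d*, *Lce3a* and *Lce3b*. Within 500 bp of an annotated transcript start, 8 members (13.6%) were called in all libraries, against 40.0% of all protein-coding genes, and 17 (28.8%) in at least 1, against 56.7%. The 8 were *S100a1*, *S100a13*, *S100a3*, *S100a4*, *S100a6*, *S100a11*, *S100a10* and *Sprr1a*, so no *Lce* gene and no fused S100 gene was called at its start in every library.

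**Figure D1:**
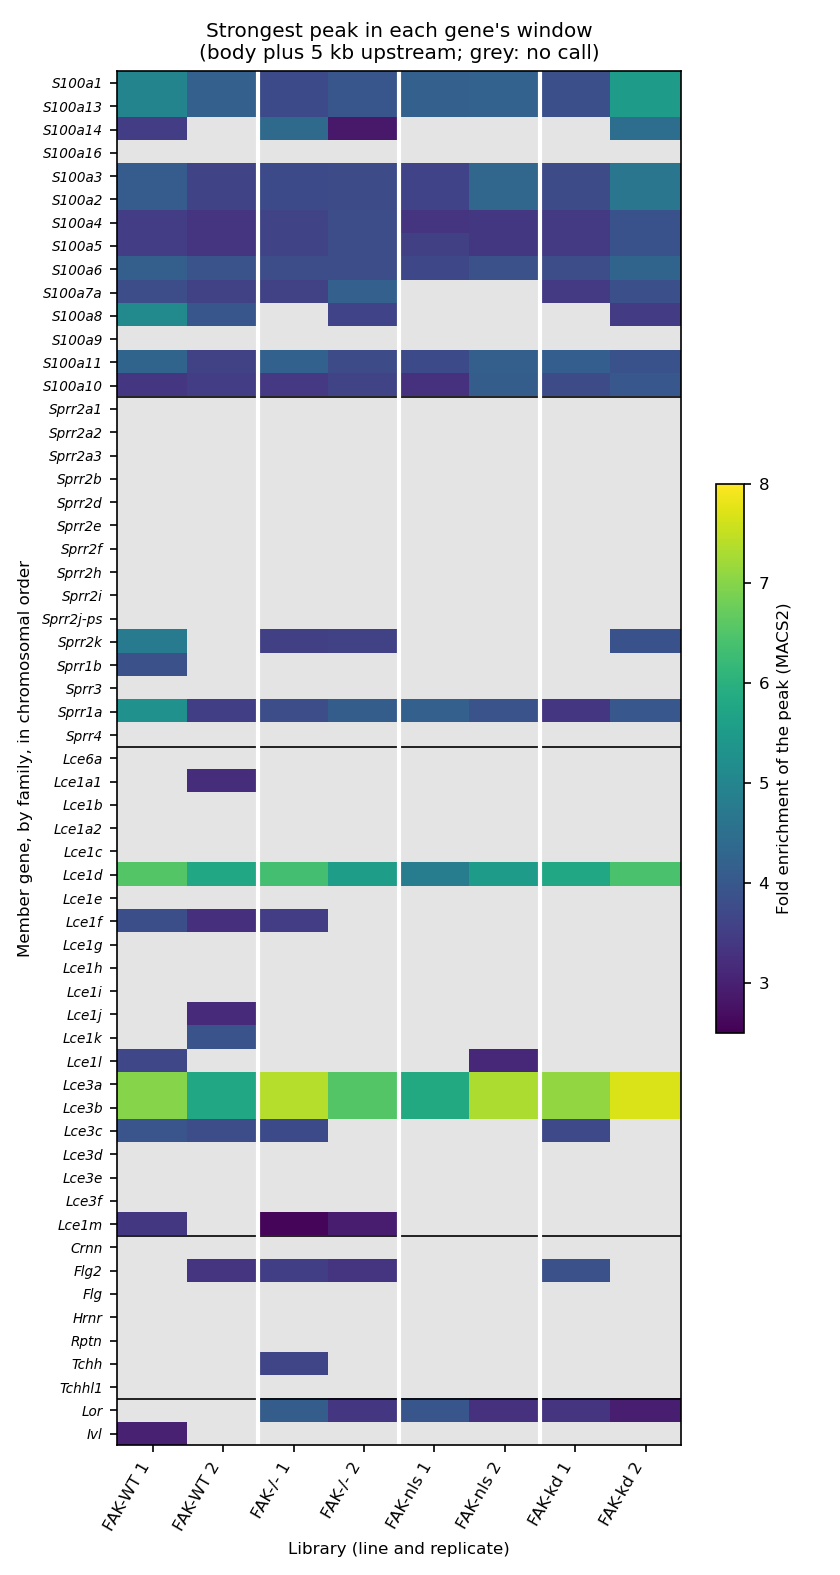
Fold enrichment (peak coverage over the local background of the library, from MACS2) of the strongest peak in the window of each of the 59 members (rows, grouped by family in chromosomal order) in the 8 libraries (columns); grey cells had no call. Calls fill most of the S100a rows, while 12 of 15 Sprr rows and 11 of 21 Lce rows are grey throughout.

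Among the *S100a* genes, the values below are the fold enrichment of the strongest peak in the window, in the order FAK-WT 1 and 2, FAK-/- 1 and 2, FAK-nls 1 and 2, FAK-kd 1 and 2. Each peak was also placed by its rank, by −log10 p, in the list of its own library, with the top of the list at 0%. *S100a10*, a partner of annexin A2 at the plasma membrane and the only marker called throughout, had values of 3.38, 3.50, 3.42, 3.63, 3.28, 4.12, 3.76 and 4.00. Its peaks covered the start and the first intron (merged region chr3:93554221-93556979, which overlaps an untranslated exon), and the median rank was at 23.3% of the list. Both FAK-kd values were above all 4 of FAK-WT and FAK-/-, which overlapped each other, and the FAK-nls pair spanned the other 6. *S100a11*, which binds annexin A1, had 4.26, 3.59, 4.21, 3.77, 3.74, 4.16, 4.14 and 3.89. Its peaks lay over the start and near 2.4 kb downstream, and FAK-kd 2 had a single peak across both.

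*S100a6*, calcyclin, had values of 4.16, 3.91, 3.81, 3.81, 3.69, 3.86, 3.79 and 4.27 over its start (chr3:90612096-90613682). *S100a4*, the metastasis-associated protein also used as a fibroblast marker, had 3.51, 3.32, 3.63, 3.80, 3.35, 3.40, 3.43 and 3.90 in a region over its start (chr3:90603451-90604856). In rank, this region stood at 50.4% and 60.6% of the lists in the FAK-nls libraries and between 12.1% and 27.6% in the other 6, so the groups did not overlap in rank although they did in fold enrichment. By the strongest peak of each library, both FAK-nls ranks were below those of the other 6 at all 9 *S100a* members called throughout. Several of these share a region. By the same measure, *Sprr1a*, *Lce1d*, *Lce3a* and *Lce3b* did not have this order. Over all 10741 protein-coding genes called throughout, 25.1% had it. At *Lce1d*, however, the strongest FAK-nls 2 peak lay in a different region from those of the other libraries. Within chr3:92691625-92692219, called in all 8, the FAK-nls ranks were 26.3% and 35.3%, against 4.06% to 14.2% in the other 6, so this *Lce1d* region had the order. Read by region, some regions of *S100a* windows called in all 8 did not have it. At chr3:90606156-90606635, upstream of *S100a5*, FAK-nls had 43.9% and 85.8%, but FAK-/- 2 had 75.0%. At chr3:90508227-90509942, in the *S100a13* window, FAK-nls 1 had 63.1% and FAK-kd 1 72.1%. At *S100a10* the order was narrow, with FAK-nls 2 at 25.3% and the weakest of the other 6 at 24.9%. These ranks are shares of lists of unequal length, with the FAK-nls lists the shortest. The *S100a4* region reaches the upstream window of *S100a5*, whose start was called in no library. The region at chr3:90606156-90606635 was also called upstream of *S100a5* in all 8. Both regions lie closer to the *S100a4* start than to that of *S100a5*.

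*S100a1* and *S100a13* start on opposite strands and share a region (chr3:90513892-90515373, over a coding exon). It had 4.98, 4.19, 3.74, 3.97, 4.18, 4.24, 3.85 and 5.52. FAK-WT 1 and FAK-kd 2, the libraries with the most peaks, had the highest values here. The window of *S100a13*, which takes part in the release of signal-peptide-less proteins such as FGF1, also reaches the promoter of its neighbour *Chtop*, called in all 8.

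*S100a2* and *S100a3* likewise share a region at chr3:90586795-90588103, with 3.67, 3.62, 3.73, 3.75, 3.61, 4.31, 3.77 and 4.67. It lies over an inner start of *S100a3*, since the longest annotated *S100a3* transcript begins far upstream, and ranked at a median of 14.5%. The nearest region to the *S100a2* start, centred 637 bp upstream of it (chr3:90589289-90589931), was called in all but the FAK-nls libraries, with 4.09, 3.18, 3.16, 3.09, 2.71 and 2.70 in FAK-WT, FAK-/- and FAK-kd. Its edge came within 500 bp of the start in both FAK-WT libraries only (0.205% of all protein-coding genes had calls in this pattern there). The FAK-WT peaks entered that window by 19 and 185 bp, and the FAK-/- 1 peak ended 501 bp from the start, so the count at the start separates FAK-WT by the extent of a peak that 3 lines share. The *S100a3* window held 6 peaks in each FAK-WT and FAK-/- library, 5 in each FAK-kd library and 2 in each FAK-nls library.

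The inflammatory *S100a* genes were called in part. *S100a7a*, the mouse relative of psoriasin, had 3.80, 3.56, 3.59 and 4.19 in FAK-WT and FAK-/- and 3.44 and 3.85 in FAK-kd, but no peak in FAK-nls, and its region (chr3:90652889-90654263) spans its start. *S100a8*, a subunit of calprotectin, had 5.11 and 3.97 in the FAK-WT libraries, 3.60 in FAK-/- 2 and 3.48 in FAK-kd 2, all over its start (chr3:90668764-90669354). *S100a9*, the other subunit, was called in none. *S100a14* had 3.51 in FAK-WT 1, 4.41 and 2.88 in the FAK-/- libraries and 4.48 in FAK-kd 2, and its FAK-/- peaks did not overlap each other. *S100a16* was called in none.

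Of the envelope precursors outside the gene families, *Ivl* (involucrin) had a single peak. It was in FAK-WT 1, with a fold enrichment of 3.0, centred 330 bp upstream of the start (chr3:92573864-92574266). It ranked at 99.1% of that list, near its weak end. A stronger region at chr3:92579427-92580099, centred 6028 bp upstream of the *Ivl* start, was called in all 8 libraries (5.05, 3.87, 5.10, 4.90, 5.24, 5.10, 4.53 and 3.81) and lies just outside the 5 kb window. With 10 kb upstream, *Ivl* was therefore called in all 8 libraries, so its count depends on the window.

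*Lor* (loricrin, the main protein of the mature envelope) was called in every library except both FAK-WT libraries. The values were 4.12 and 3.37 in FAK-/-, 3.98 and 3.28 in FAK-nls, and 3.35 and 2.96 in FAK-kd. Only 3 of 21938 protein-coding genes (0.0137%) and 33 of 69399 regions (0.0476%) had this pattern. The peaks were weak, at 52.8% to 97.4% of their lists. They lay in the coding exon, with the merged region (chr3:92080698-92081931) centred 1828 bp downstream of the start, and the start itself was called in no library. The region was 73.7% G or C, and 0.487% of all regions had more. Of the 1029 regions of at least 70% GC in the genome, the FAK-WT libraries called 74.6% and 71.2%, and the others 61.1% to 80.3%. Among the 33 regions that share the pattern of *Lor*, 2 (6.06%) had such a GC content, against 3.10% of the regions called in all libraries and 0.217% of those called in FAK-WT alone. The *Lor* region is itself counted among the 33 and among these 2, so this share does not stand apart from it. No 50-base stretch of the *Lor* region recurred in the genome. The part of GC content in the *Lor* pattern was not tested. With a minimum −log10 q of 3 the *Lor* call was left in 1 library, and with equal numbers of strongest peaks in 3, none of them FAK-WT.

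**Figure D2:**
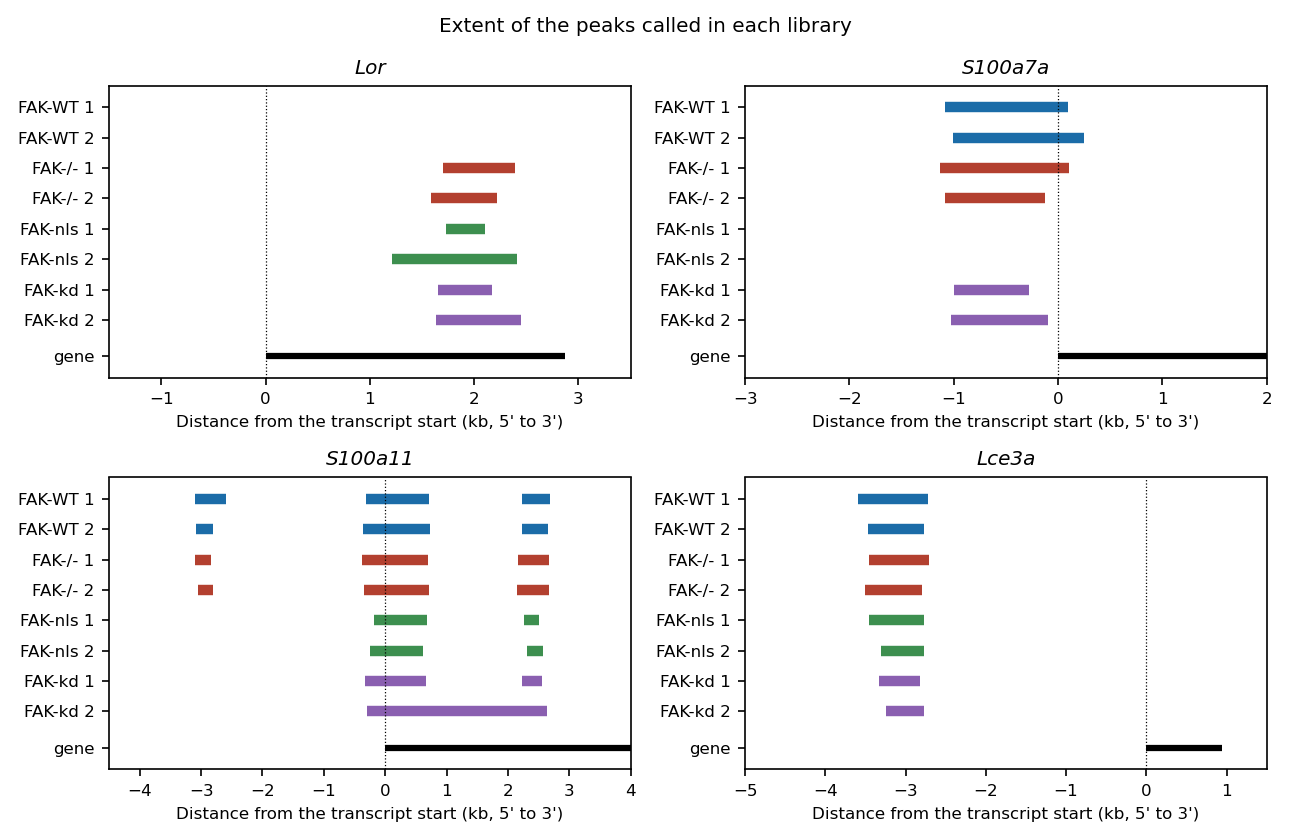
Extent of each called peak (coloured bars, 1 row per library) around the starts of Lor, S100a7a, S100a11 and Lce3a; the x axis is the distance from the transcript start in kb, 5' to 3', and the black bar is the gene. FAK-WT rows are empty at Lor, FAK-nls rows are empty at S100a7a, the peak upstream of S100a11 is in FAK-WT and FAK-/- rows only, and the Lce3a peak is in every row.

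The small proline-rich genes, which encode cross-bridging proteins of the envelope, had a call in 3 of 15 members. *Sprr1a* was called throughout: its start (chr3:92485093-92486397) was called in all 8 libraries, with 5.28, 3.52, 3.80, 4.13, 4.18, 3.90, 3.36 and 4.00. These peaks were weaker than most, at a median of 69.4% of the lists, and a minimum −log10 q of 3 kept 3 of the 8. *Sprr2k* had 4.76 in FAK-WT 1, 3.54 and 3.59 in the FAK-/- libraries and 3.89 in FAK-kd 2 just upstream of its start. *Sprr1b* had a peak in FAK-WT 1 alone. *Sprr2a1*, *Sprr2a2*, *Sprr2a3*, *Sprr2b*, *Sprr2d*, *Sprr2e*, *Sprr2f*, *Sprr2h*, *Sprr2i*, *Sprr2j-ps*, *Sprr3* and *Sprr4* had none. No peak of any library fell in the 256724 bp from chr3:92153547 to 92410270, which contain 9 of these *Sprr2* genes.

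Near-identical copies can lose reads when these map to several places, so the windows were searched for 50-base stretches that recur on chromosomes 1 to 19, X or Y of GRCm38. In the windows of *Sprr2a1*, *Sprr2a2* and *Sprr2a3*, over 50% of the positions recurred, with the highest at 98.3%. The other 27 members with no call were at or below that 50%, and the median over the 30 was 6.31%. Over the 13 members called in all libraries the median was 3.48%, and the highest was 23.4%. For all but those 3 *Sprr2* genes, most of the window was unique at this length. The windows of *Flg2*, *Flg* and *Hrnr* came close to 50%, at 47.4%, 46.9% and 42.8%. Reads lost in this way were not measured, and their part in the missing calls was not tested.

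The late cornified envelope genes held the strongest peaks of any member, and these lay upstream. *Lce3a* and *Lce3b* are divergent neighbours whose windows share a region between them (chr3:92928940-92929821). Its values were 7.01, 5.77, 7.39, 6.54, 5.84, 7.32, 7.12 and 7.70, with ranks from 1.86% to 11.3% of the lists. Both FAK-kd values were above both FAK-WT values, and every other pair of lines overlapped. It is centred 3150 bp upstream of *Lce3a* and 3599 bp upstream of *Lce3b*, neither start was called in any library, and it cannot be assigned to either gene. *Lce1d* had 2 such regions, at chr3:92689001-92689462 and chr3:92691625-92692219. The first of these lies over the start of the noncoding gene *Gm4202* and cannot be assigned to *Lce1d*, 2021 bp away. Over both regions, the strongest peak had 6.54, 5.79, 6.36, 5.59, 4.81, 5.53, 5.77 and 6.42. In the more distant region, the FAK-nls libraries had the lowest values (4.81 and 4.47, against 5.59 to 6.54 in the other 6). Of the nearer region, 7.02% of the 50-base positions recurred elsewhere, and of the other, none.

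The remaining *Lce* calls were weak and scattered. *Lce3c* had 3.95, 3.80, 3.75 and 3.72 in the FAK-WT libraries, FAK-/- 1 and FAK-kd 1. *Lce1f* had 3.83, 3.25 and 3.50 over its start in the FAK-WT libraries and FAK-/- 1. *Lce1m* had 3.39 in FAK-WT 1 and 2.60 and 2.94 in the FAK-/- libraries. *Lce1l* was called in 2 libraries (FAK-WT 1 and FAK-nls 2), and *Lce1a1*, *Lce1j* and *Lce1k* in 1, FAK-WT 2 in each case. *Lce6a*, *Lce1b*, *Lce1a2*, *Lce1c*, *Lce1e*, *Lce1g*, *Lce1h*, *Lce1i*, *Lce3d*, *Lce3e* and *Lce3f* were called in none.

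The fused S100 genes, whose long repeats encode keratin-binding and hair-follicle proteins, were rarely called. *Flg* (filaggrin) had no peak from 5 kb upstream to its end, and the nearest to its start was 10.6 kb upstream, in FAK-WT 1 alone. *Flg2* had peaks within the gene, the strongest with 3.32 in FAK-WT 2, 3.51 and 3.32 in the FAK-/- libraries and 3.86 in FAK-kd 1. These were centred at least 8.57 kb from its outermost start, and their merged region was centred 5946 bp from the nearest annotated start. Another region, called in FAK-kd 1 alone, was centred 2204 bp from an annotated start. *Tchh* (trichohyalin) had a peak in FAK-/- 1 alone, and *Crnn*, *Hrnr*, *Rptn* and *Tchhl1* had none. No start of this family was called in any library. The region called throughout that was nearest to *Flg* was 212 kb away, and over the 30 members with no call the distance from the start to such a region had a median of 70.4 kb and ran from 5.34 kb to 270 kb.

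The number of members called was lowest in the FAK-nls libraries, which also had the shortest peak lists, but no difference between lines passed the threshold. The FAK-WT libraries had 23 and 21 called members, FAK-/- 22 and 20, FAK-nls 14 and 15, and FAK-kd 17 and 18, that is 23.7% to 39.0% of the 59, against 66.8%, 62.3%, 63.9%, 59.9%, 53.5%, 53.8%, 58.9% and 64.6% of all protein-coding genes in the same libraries. The mean was 22.0 ± 1.41 (SD, n = 2) in FAK-WT and 17.7 ± 3.01 (SD, n = 6) in the other libraries. The difference of 4.33 was not past the threshold (two-sided exact permutation test over 28 choices of libraries, p = 0.143, adjusted p = 0.171 over 6 tests). It was 2.33 with a minimum −log10 q of 3 and 0.167 at equal list size. Between the 4 lines lay 93.4% of the variance (one-sided exact permutation test over all divisions into 4 pairs, p = 0.0190, adjusted p = 0.114), but 53.8% with that minimum and 54.4% at equal list size. The smallest p-values that these tests allow are 0.0357 and 0.00952, so that after adjustment over 6 no test could pass on its own.

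Counts over the whole interval were taken next. Peaks of the 8 libraries merged into 116 regions there, of 69399 in the genome, and 90, 69, 78, 64, 40, 39, 54 and 69 of them were called in the libraries in the order above. FAK-WT libraries had 22.2 more than the mean of the others (79.5 ± 14.8, n = 2, against 57.3 ± 15.8, n = 6; exact permutation, p = 0.143, adjusted p = 0.171). This difference was 11.7 without FAK-WT 1, 32.7 without FAK-WT 2 and 4.17 at equal list size. The lines accounted for 80.5% of this variance (exact permutation, p = 0.0667, adjusted p = 0.133). Divided by the size of the list, the interval held 1.69 and 1.79 of every 1000 peaks in FAK-WT, 1.85 and 1.87 in FAK-/-, 1.68 and 1.60 in FAK-nls, and 1.67 and 1.52 in FAK-kd. On this scale the FAK-WT difference was 0.0430 (exact permutation, p = 0.679, adjusted p = 0.679), the FAK-/- libraries were the highest, and 81.8% of the variance lay between lines (exact permutation, p = 0.0381, adjusted p = 0.114). When every list was shortened to its 24383 strongest peaks, members called ranged from 12 to 15 and the FAK-nls libraries had 14 each, so the low FAK-nls count was not seen at equal list size.

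**Figure D3:**
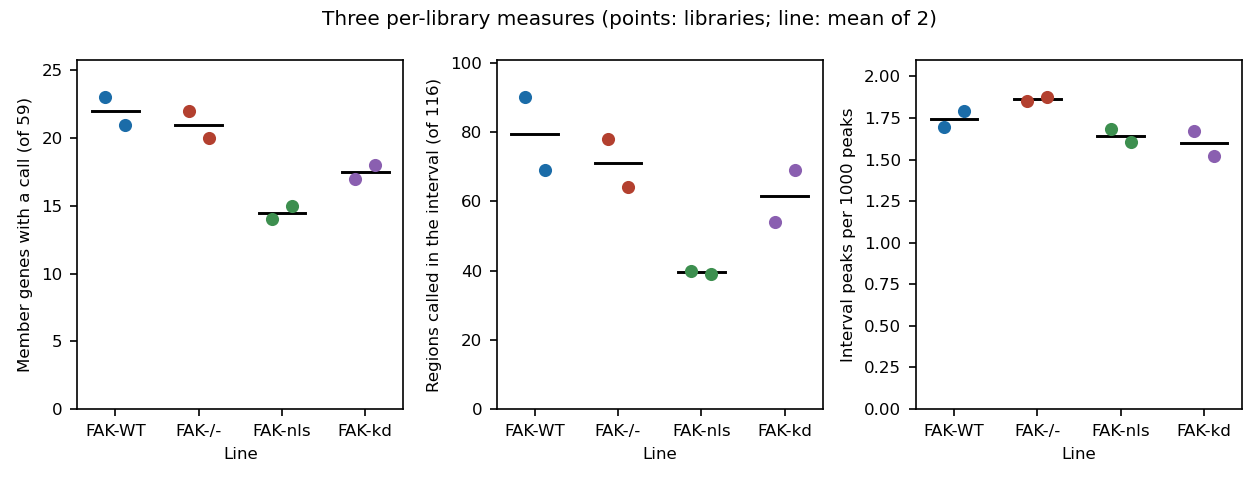
Member genes with a call, regions of the interval called, and interval peaks per 1000 peaks of the library, for the 4 lines on the x axis; points are the 2 libraries of a line and horizontal lines their mean, with all y axes from 0. FAK-nls libraries are lowest in the first 2 panels (14 and 15 members, 40 and 39 regions) but overlap the FAK-kd libraries in the third, where they are 1.68 and 1.60.

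Members that separated FAK-WT from another line were few. No member was called throughout FAK-WT and missing throughout FAK-/-, against 1.43% of protein-coding genes, and *Lor* alone showed the reverse (1.69% of members, against 0.451%). Against FAK-nls, 4 members were called in FAK-WT only (*S100a7a*, *S100a8*, *Lce1f* and *Lce3c*, 6.78% against 5.80%), and *Lor* was the reverse (against 0.0501%). Against FAK-kd, *Lce1f* was called in FAK-WT only (1.69% against 1.20%), and *Lor* was the reverse (against 0.278%). These comparisons share the FAK-WT libraries, so *Lor* is the same observation in each. Between 2 lines of 2 libraries each, no exact test of a single gene can pass 0.05. At equal numbers of strongest peaks none of the 4 members remained FAK-WT only, and *Lor* kept its reverse pattern against FAK-nls alone.

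Among the other lines, 5 members were called in both FAK-/- libraries and neither FAK-nls library (*S100a14*, *S100a7a*, *Sprr2k*, *Lce1m* and *Flg2*, 8.47% against 4.11% of protein-coding genes). With equal list sizes, 0 members had this pattern. *Lce1m* was also absent from both FAK-kd libraries (1.69% against 0.666%), and *S100a7a* was the member called in both FAK-kd libraries and not in FAK-nls (1.69% against 3.44%). *S100a7a* alone was called in every library but those of FAK-nls, against 1.89%. No member was called in both libraries of FAK-nls or of FAK-kd and in neither FAK-/- library, against 0.169% and 0.570%. None was called throughout FAK-nls and missing throughout FAK-kd (0.0957%), and none in FAK-WT and nowhere else (0.438%).

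Over regions, 31 of the 116 (26.7%) were called in all 8 libraries, against 25.8% of all merged regions, so the regions that exist in the complex were shared about as often as elsewhere. Of these 31, 12 overlapped a member window and 19 did not. Another 36 (31.03%, against 28.6%) were called in 1 library, 15 of them FAK-WT 1. Regions in FAK-WT only numbered 2 against FAK-/- (1.72%, against 4.89%), 18 against FAK-nls (15.5%, against 15.3%) and 5 against FAK-kd (4.31%, against 4.33%). The reverse held for 2 regions against FAK-/- (1.72%, against 1.18%), and for the *Lor* region alone against FAK-nls (0.862%, against 0.248%) and FAK-kd (0.862%, against 0.830%). FAK-nls libraries were the only ones to lack 7 regions (6.03%, against 4.12%), of which 4 overlapped member windows, at *S100a2* and *S100a3*, at *S100a4* and at *S100a7a*. Present in FAK-/- and missing in FAK-nls were 18 regions (15.5%, against 10.4%), and missing in FAK-kd were 6 (5.17%, against 2.15%), among them those upstream of *S100a11* and *Lce1m* and in an *S100a10* intron.

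Within member windows, a region 2850 bp upstream of the *S100a11* start (chr3:93517387-93517890) had a call in each library of FAK-WT (3.73 and 3.08) and of FAK-/- (3.41 and 3.0) and in none of FAK-nls and FAK-kd. It was chosen after its values were seen, and it was the only region of the interval with this pattern (0.862%, against 0.620% of all merged regions). The promoter of *S100a11* itself was called in every library, so the count for the gene did not change.

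Outside the member windows lay 74 of the 116 regions. Of these, 24 were called in 1 library, 6 in 2, 6 in 3, 3 in 4, 6 in 5, 4 in 6, 6 in 7 and 19 in all 8. Those called throughout lay at the starts of *Ints3*, *Ilf2* and *Snapin* and inside *Ints3* and *Crct1*, downstream of the starts of *S100a16*, *Lce1l*, *Lce3e*, *Tchhl1* (2 regions), *S100a11* and *S100a10* (4 regions), and upstream of *Ivl*, *2310050C09Rik*, *Lce3f* and *Lce1m*. The strongest of them, named after their values were seen, were the *Ints3* promoter and regions centred near 11.6 and 37.0 kb downstream of an *S100a10* start, with median ranks at 0.576%, 1.07% and 0.948% of the lists. The region near *S100a10* that is 37.0 kb away had 6.41, 6.26, 6.49, 6.91, 6.19, 6.34, 6.77 and 6.73, a narrow range in which FAK-nls had the lowest value and FAK-/- 2 the highest.

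Among the outside regions that separated lines, the start of *Kprp* (keratinocyte proline-rich protein, chr3:92827067-92827599) had 6.20, 4.45, 5.32, 5.23, 3.99 and 4.26 in FAK-WT, FAK-/- and FAK-kd and no peak in FAK-nls. At *Npr1*, a natriuretic peptide receptor gene, a region 79 bp upstream of an inner start had calls in both FAK-WT libraries (3.49 and 3.36) and FAK-kd 2, and another 277 bp upstream of the gene start in both FAK-/- libraries (2.75 and 3.53), FAK-nls 2 and FAK-kd 2. An intergenic region at chr3:93052766-93053340 was the only one of the interval called in both FAK-WT libraries (3.76 and 4.23) and no other (0.862%, against 1.99%). Regions at chr3:90423548-90423914 (intron of *Ints3*) and chr3:92150205-92151136 (7926 bp upstream of *Lelp1*) were, like *Kprp*, missing in FAK-nls alone.

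**Figure D4:**
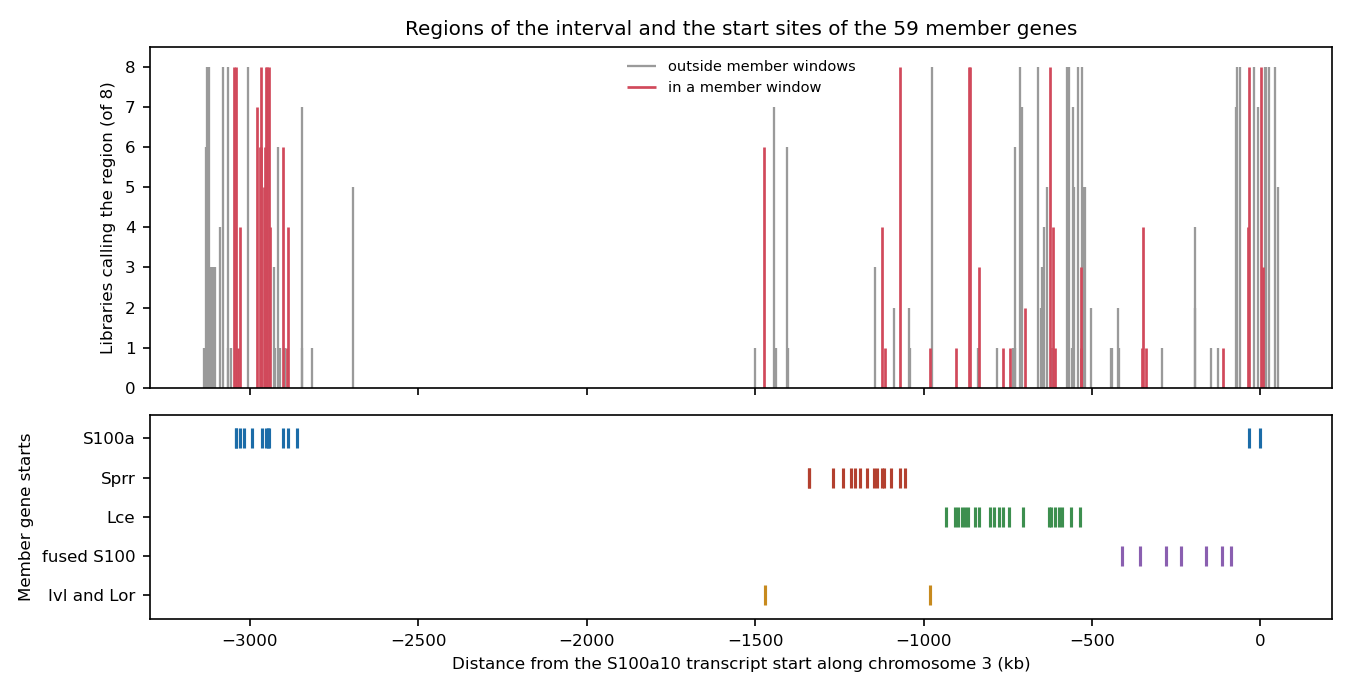
Number of libraries (of 8) calling each of the 116 regions (upper panel, red where the region overlaps a member window) and the starts of the 59 members by family (lower panel); the x axis is the distance along chromosome 3 from the S100a10 start in kb. Regions called in all 8 libraries sit at both S100a clusters and among the Lce genes, and none lies over the Sprr2 cluster or in the stretch of 1190064 bp that has no region.

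The longest stretch without a call ran over 1190064 bp from chr3:90863011 to 92053074, between *S100a9* and *Lor*, and it holds no member and 0 undetermined bases in the reference. The density of regions in the interval was 35.2 per Mb, against 25.5 per Mb over all chromosomes used.

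Motif letters were counted without a test. AP-1 matches occurred in the central 500 bp of 38 of the 116 regions (32.8%), against 35.3% of all merged regions, and in 15 of the 42 in member windows (35.7%). ETS matches occurred in 15 (12.9%, against 17.0%), KLF in 8 (6.90%, against 6.14%), CTCF in 10 (8.62%, against 5.03%) and p53 family in 2 (1.72%, against 4.33%). Among the 31 called in all libraries, the shares were 29.0% for AP-1, 12.9% for ETS, 16.1% for KLF, 9.68% for CTCF and 0 for the p53 family. The matching shares over all regions called throughout were not taken. Grainyhead and C/EBP letters were in 0 regions of the interval, and in 0.174% and 0.137% of all regions. At least 2 AP-1 matches, as in the 3 *Lce* regions printed above, were present in 9.48% of the regions, against 5.90% of all. The median GC content was 46.1%, against 48.5% of all regions.

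At promoters, 54 of the 59 members matched the RefSeq table, with 58 promoters. AP-1 letters were in 11 of these (18.97%), against 5.20% of all promoters: *Ivl*, *Lor*, *S100a11*, *Sprr1a*, *Sprr2b*, *Sprr2d*, *Sprr2e*, *Sprr2f*, *Sprr2h*, *Sprr2i* and *Sprr2k*. Of these 11 genes, *Sprr1a* and *S100a11* were called at the start in all 8 libraries, *Sprr2k* in 4 and *Ivl* in 1, and the others in none. The *Sprr2* promoters are related copies, so their matches are not independent. ETS letters were in 12 promoters (20.7%, against 15.1%), including *Ivl*, *Flg* and *Lce3a*, and KLF letters in that of *Ivl* alone (1.72%, against 3.56%). The p53 family consensus was in 5 (8.62%, against 1.93%), those of *Flg2*, *Sprr4* and the related copies *Sprr2a1*, *Sprr2a2* and *Sprr2a3*, and the CTCF consensus in that of *S100a6* (1.72%, against 0.874%).

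Genes that act in cornification from other chromosomes were read in the same way, from a list of 24. In the window with 5 kb upstream, 7 (29.2%, against 49.0% of all protein-coding genes) were called in all 8 libraries (*Tgm1*, *Ppl*, *Cdsn*, *Klf4*, *Prdm1*, *Cebpa* and *Cebpb*) and 6 (25.0%, against 28.4%) in none (*Krt1*, *Krt2*, *Tgm3*, *Krtdap*, *Dsg1a* and *Dsc1*). Within 500 bp of a start, the transcription factor genes *Klf4*, *Cebpa* and *Cebpb* were called throughout (12.5% of the list, against 40.0%). There, 12 (50%, against 43.3%) were called in none, among them *Krt1*, the suprabasal keratin, and *Tgm1*, a transglutaminase that cross-links the envelope. *Krt10*, the partner of *Krt1*, was called in 5 libraries and not in FAK-/- 2 or FAK-nls.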

How the data were processed

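ATAC-seq libraries from 4 lines of mouse SCC cells (n = 2 each) were used. Per the study's methods and the submitters' processing notes, reads were aligned to mm10 in the bcbio pipeline and broad peaks were called in each library with MACS2 2.1.1 at q 0.05, without pooling. The deposited lists nevertheless include peaks with q above 0.05, from 0.784% of the list in FAK-WT 1 to 3.83% in FAK-kd 2. The lowest −log10 q of a library lay between 1.00 and 1.02. These peaks were kept as calls under the main settings. The deposited peak lists give for each peak its mean coverage (pileup signal), the −log10 p and −log10 q values, and the fold enrichment, a ratio to the local background, as the authors computed them. Coverage was not scaled between libraries, so the comparisons used whether a peak was called, and fold enrichment and rank by −log10 p describe strength. The read numbers that the study tabulates were not used here, and equal list size does not mean equal depth.

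Genes were taken from GENCODE vM21 (GRCm38). Peaks of the autosomes and both sex chromosomes were assigned to gene windows with an overlap of at least 1 bp and merged across libraries into regions. Promoter sequences are from RefSeq (GRCm38). Scripts ran in Python 3.11.15 with numpy 2.4.6, pandas 2.3.3, numba 0.67.0 and matplotlib 3.10.9, and were tested on simulated data. FAK-WT was compared with the other 6 libraries, and the variance between lines was taken, by exact permutation tests adjusted (Benjamini-Hochberg) over 6 tests at a threshold of 0.05. No 2 libraries shared more than 0.0361% identical peaks, and same-numbered libraries were not paired. Alternatives were a minimum −log10 q of 3, equal list sizes, 500 bp peaks, a 10 kb or promoter window, peak centres, a cover of 50% and leaving out each library. Named were the 3 markers and every member with a call, with values for members called in all libraries or in both libraries of 1 line and neither of another. The members and lists were chosen with earlier results of these data known.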

Additional observations from a re-analysis of the deposited data

How the results depend on the processing

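Of 160 alternative values, 141 kept their direction and side of the threshold or stayed within 1.5 times the count, 17 counts moved and 2 differences reversed. For tests, 78 of 80 values were kept, but this label allows large changes in size. A share of variance cannot change sign, and the FAK-WT difference in called members was kept although it was 4.33 in the main settings and 0.167 at equal list size. The tally is therefore no measure of stability. None of the 6 tests passed under the main settings or any alternative, and the lowest adjusted p was 0.0762 (variance of called regions between lines, with 50% cover). The replicate block could not pass after adjustment, nor could the FAK-WT differences without a FAK-WT library (smallest p 0.143), so they say nothing about stability. The FAK-WT difference in interval peaks per 1000 peaks was -0.0665 with a minimum −log10 q of 3 (exact permutation, adjusted p = 0.786) and ran from -0.00640 (without FAK-WT 2) to 0.0923 when single libraries were left out. Summed over the 3 other lines, members called in FAK-WT only numbered 5, but 0 with that minimum and 0 with equal list sizes, and the reverse numbered 3, but 0 and 1. For regions, FAK-WT only numbered 25, but 9 with equal list sizes and 43 when a peak had to cover 50% of a region, and the reverse numbered 4, but 1 with the −log10 q minimum and 2 with the 50% cover. Members called in all libraries numbered 13, but 8 with the promoter window. With single libraries left out, these sums ran from 5 to 17 and from 3 to 6 for members, and from 26 to 93 and from 4 to 13 for regions, with 15, 6, 50 and 13 without FAK-WT 1, 17 members and 93 regions in FAK-WT only without FAK-WT 2, and 9 and 12 regions in reverse without FAK-/- 2 and FAK-kd 1. The member sums cannot fall when a library is left out, since a line is then read from 1 library. Regions were merged anew each time, so their sums could fall, but none did. The cause of the other changes was not tested. Replicate numbers carried no shared deviation (correlations from -0.0983 to 0.0302), and with the number as a replicate block the members gave p = 0.125 for the difference and 0.0417 for the variance (exact permutation, adjusted p = 0.225 and 0.125), where the smallest possible are 0.0625 and 0.0417. Read depth was not taken into account, which limits what a missing call shows.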
